A study of Mus musculus with 13 samples.

Results

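The oncofetal RNA-binding and HMGA genes are 8 genes of the deposited table, Igf2bp1, Igf2bp2, Igf2bp3, Lin28a, Lin28b, Hmga1, Hmga2 and Sall4, chosen by symbol out of 53465 genes. Their RNA was compared between 3 ovaries of wild-type (WT) C57BL/6 mice and 10 MYC;Trp53 (MP) EPO-GEMM ovarian tumors by RNA-seq of polyA RNA. An EPO-GEMM is a mouse in which the ovary was injected with plasmids and electroporated, here with a MYC transposon, its transposase and a vector carrying Cas9 with a guide RNA against Trp53. The females were 8 to 12 weeks old at electroporation, all 13 samples are labelled non-treated, and each tumor library was made from whole tumor tissue taken at end point. The labels name the tumors Myc;p53-/- and do not say whether each library is a separate animal. P values therefore measure the spread between these libraries, which may differ from that between animals. Electroporation reaches any cell of the injected tissue, so a tumor library holds edited and unedited cells of several types. The labels also give a code, which is IGO_10280 for the 3 WT ovaries and MP tumors 1 to 3, IGO_10469 for MP tumors 4 to 6 and IGO_11445 for MP tumors 7 to 10. Code and condition can be told apart only within code IGO_10280.

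These genes are expressed in the embryo or the germ line, are low in most adult tissues and return in many tumors. The LIN28 proteins bind precursors of the let-7 microRNAs and block their maturation, while let-7 represses transcripts that carry its sites, among them those of the Lin28, Igf2bp and Hmga2 genes. The IGF2BP proteins bind and stabilize mRNAs, the HMGA proteins bind the minor groove of AT-rich DNA and bend it, and SALL4 is a zinc-finger transcription factor of pluripotent and germ cells.

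Levels are given in TPM, a share of all transcripts in a library, which is scaled by gene length so that genes can be compared. Libraries held 31445004 to 64013840 reads in the WT ovaries and 3892690 to 19906507 in the MP tumors, worked back from the TPM values. A gene listed at 0 is therefore given with the TPM that 3 reads would have made. In MP tumor 2, the 10 highest genes took 55.1% of the TPM, against a median of 13.6% over the tumors. Trp53, the targeted gene, was at 80.7, 85.0 and 85.4 TPM in the WT ovaries and between 4.30 and 26.0 TPM in 9 tumors, but at 187 TPM in the library labelled MP tumor 10, and it missed the threshold (log2 fold change -2.23, adjusted P = 0.0579 by limma). Myc was at 127 ± 1.96 TPM (SD, n = 3) in WT and between 7.09 and 419 TPM in the tumors, where reads of the transposon and of the mouse gene cannot be told apart. Its median in the tumors was 90.5 TPM, with 4 tumors above every WT ovary and 6 below every one.

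To show what the 8 genes share in sequence, the let-7 microRNAs and their matches in these genes are printed first. RefSeq (GRCm38.p6) holds 8 mature let-7 microRNAs of the 5′ arm, and in 8 of 8 the seed, bases 2 to 8, is the same. The seed is in capitals.

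let-7a-5p: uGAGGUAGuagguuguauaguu

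let-7b-5p: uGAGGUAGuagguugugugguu

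let-7d-5p: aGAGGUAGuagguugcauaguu

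let-7g-5p: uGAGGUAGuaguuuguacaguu

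let-7i-5p: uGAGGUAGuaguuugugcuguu

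The letters that pair with this seed, CUACCUC in RNA, were searched in the stretch after the stop codon of the transcript with the longest such stretch (GENCODE M21, GRCm38), on the transcript's strand only. All 8 genes held at least 1 match, against 9.02% of the 20979 protein-coding genes of the table and 10.3% of the 13995 that were tested. Hmga2, Lin28b and Igf2bp1 held 4 matches each, Lin28a held 2, and Igf2bp2, Igf2bp3, Hmga1 and Sall4 held 1 each. Among genes with a stretch of like length (within 20%), as many matches were found in 0.134% for Hmga2, 0.237% for Lin28b, 0.356% for Igf2bp1 and 2.10% for Lin28a, and in 8.05% to 13.3% for the 4 genes with a single match. These genes are textbook let-7 targets in part, so their matches are no independent observation. The match nearest the stop codon of each gene is printed as the transcript reads, in DNA letters, with the match in capitals.

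Igf2bp1, chr11:95961776-95961800, minus strand: gctgtgcgaagtaaaCTACCTCaag

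Igf2bp2, chr16:22059471-22059495, minus strand: acacacaaataaaagCTACCTCagg

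Igf2bp3, chr6:49086785-49086809, minus strand: tgcatttttactcaaCTACCTCagg

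Lin28a, chr4:134005187-134005211, minus strand: gcacagcctgttgaaCTACCTCatt

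Lin28b, chr10:45381020-45381044, minus strand: acccgggcgggaagtCTACCTCatg

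Hmga1, chr17:27563277-27563301, plus strand: tcctctgttcacaaaCTACCTCtgg

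Hmga2, chr10:120364222-120364246, minus strand: gccgacattcaatttCTACCTCagc

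Sall4, chr2:168748938-168748962, minus strand: agggctttaatttatCTACCTCaat

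In 7 of these 8 sites the match is followed by an A, and in that of Hmga1 it is not. Over all 18 matches in the 8 genes, 10 are followed by an A. PolyA libraries do not measure mature let-7, so its level in these samples is not analysed here.

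**Figure D1:**
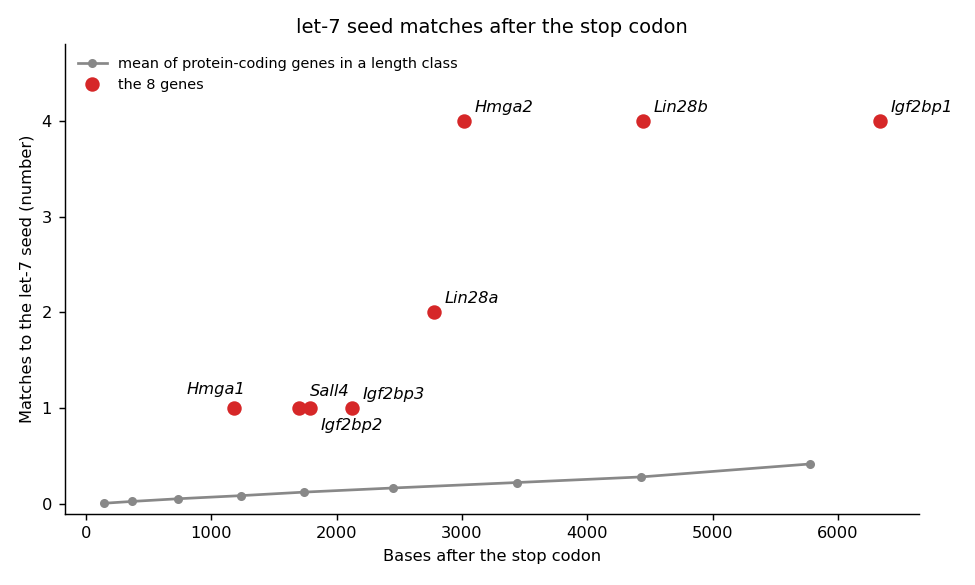
Number of let-7 seed matches (y axis) against the number of bases after the stop codon (x axis) for the 8 genes (red points) and the mean of protein-coding genes in classes of length (grey line). Hmga2, Lin28b and Igf2bp1, with 4 matches each, lie farthest above the line, which reaches a mean of 0.419 matches in the longest class.

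The comparison of MP tumors with WT ovaries asks how far these genes return in tumors made with a MYC transposon and a guide against Trp53. In this fit (limma on log2(TPM + 1), adjusted P under 0.05), 17277 genes with at least 1 TPM in at least 3 libraries were tested, of which 433 (2.51%) were higher and 2463 (14.3%) lower in the tumors. The median log2 fold change of all genes was -0.58. With median-of-ratios scaling it moved to -0.02, and 1274 genes were higher and 1897 lower. Within code IGO_10280, 6.44% were higher and 57.3% lower, and with voom on the reads worked back 10.9% and 23.4%, and calls in those fits are read against these shares. The median log2 fold change of all genes within code IGO_10280 was -1.19. Of the 8 genes, 5 could be tested. Hmga1 was higher, Igf2bp2, Hmga2 and Sall4 were lower, and Lin28b missed the threshold. Sall4 and Hmga2 passed the filter only through the WT ovaries, where they are high, and Lin28b only through MP tumors 1, 3 and 10, so these counts are not read as support for a direction of the group. In whole tissue, fewer cells that make an RNA and less of it in each cell cannot be told apart.

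**Figure D2:**
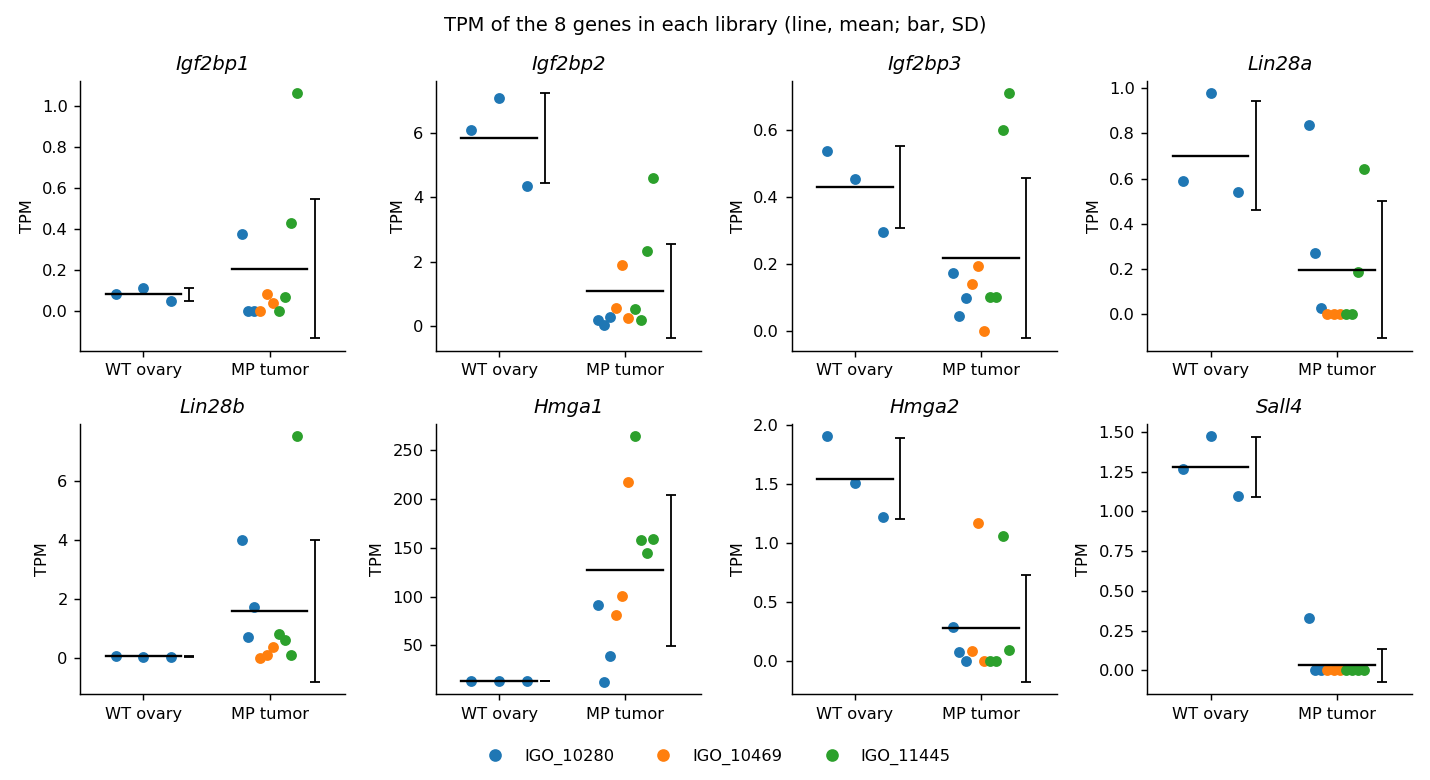
TPM (y axis, a separate linear scale in each panel) of each gene in the 3 WT ovaries and 10 MP tumors, 1 point a library, colored by the code in the labels, with the mean (line) and SD (bar). Hmga1 lies above the WT ovaries in 9 tumors, and Sall4 lies at 0 in 9.

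Hmga1 (ENSMUSG00000046711, chromosome 17 from 27556620 to 27563674, GRCm38), which encodes an architectural chromatin protein abundant in embryonic and proliferating cells, was the highest of the 8 genes in both conditions. It was at 13.03, 13.09 and 13.07 TPM in the WT ovaries. In the tumors the lowest level was 12.8 TPM (MP tumor 2), the median 122.7 and the highest 264 (MP tumor 7). Thus 9 of 10 tumors lay above every WT ovary, and MP tumor 2, the library dominated by a few genes, lay just below them. The mean was 126.9 ± 77.4 TPM (SD, n = 10) in the tumors and 13.1 ± 0.0327 (SD, n = 3) in WT, a ratio of 9.71, and Hmga1 rose by a log2 fold change of 2.82 (SE 0.68, adjusted P = 0.0112, limma). The level also went with the code. It was 12.8 to 91.2 TPM in the tumors of code IGO_10280, 81.5 to 217 in those of IGO_10469 and 144 to 264 in those of IGO_11445. With the code as a covariate the log2 fold change was 1.41 (adjusted P = 0.0477). Within code IGO_10280 it was 1.41 (adjusted P = 0.0867), and there without MP tumor 2, a setting chosen after the data were seen, it was 2.12 (adjusted P = 0.00385). Leaving out WT ovary 1, 2 or 3 gave an adjusted P of 0.0564, 0.0546 and 0.0570, with a log2 fold change of 2.82 each time. With median-of-ratios scaling the log2 fold change was 3.48 and with quantile normalization 3.67 (adjusted P = 9.07e-05 and 5.35e-05).

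Reads of Hmga1 could be shared with other genes. Its retrogene copy Hmga1b, on chromosome 11, was at 0 to 0.0414 TPM in WT and at 0.332 to 2.54 TPM in the tumors, and it made up at most 2.52% of the sum of both. In addition, 102 of the 2125 exonic bases that GENCODE M21, whose start differs from that of the table, gives Hmga1 overlap AI413582 on the opposite strand, which reached 69.6 TPM, and the use of strand in the counting is not given in the sources used here.

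Proliferation markers are given beside Hmga1. Of 10 such genes, 5 rose in the tumors and 0 fell (7 and 0 at an unadjusted P under 0.05, 9 and 0 with voom, 5 and 1 within code IGO_10280). The count rested on single libraries. It was 0 without WT ovary 1 or 3, 1 without WT ovary 2 or MP tumor 8, 2 without MP tumor 1 or 7 and 3 without MP tumor 3 or 6. Among the 5 were Tyms, which makes thymidylate, Ccnb1, the mitotic cyclin B1, and Mcm5, a subunit of the replicative helicase, which rose with log2 fold changes of 1.69, 1.65 and 1.65. Their summed level was 343 to 614 TPM in WT and 471 to 1855 in the tumors, and their part in the level of Hmga1 was not tested.

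RefSeq gives Hmga1 a pair of start sites. The window from 250 bases before to 50 bases after the first is printed because Hmga1 was the member that rose (GRCm38.p6, plus strand).

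Hmga1, chr17:27556324-27556623: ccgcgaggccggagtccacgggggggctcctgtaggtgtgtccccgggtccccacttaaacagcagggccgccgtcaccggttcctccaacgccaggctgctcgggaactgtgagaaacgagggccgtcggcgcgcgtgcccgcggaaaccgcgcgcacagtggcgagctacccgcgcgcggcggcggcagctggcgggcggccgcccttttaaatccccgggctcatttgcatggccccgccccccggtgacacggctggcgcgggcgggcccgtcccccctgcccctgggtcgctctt

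The E-box CACGTG, a motif that MYC and other factors bind and that reads the same on both strands, is not in this window or in that of the other start site.

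Hmga2 (ENSMUSG00000056758, chromosome 10 from 120361275 to 120476469), the second HMGA gene and a gene of embryonic mesenchyme, went the opposite way. Its levels were 1.90, 1.51 and 1.22 TPM in the WT ovaries. Over the tumors the lowest was 0, the median 0.0822 and the highest 1.17 TPM (MP tumor 5), followed by 1.06 in MP tumor 9. All 10 tumors lay below the 3 WT ovaries. In the 4 tumors at 0, which were MP tumors 3, 6, 7 and 8, 3 reads would have made 0.0505 to 0.183 TPM, which is also below WT. In the fit without a filter, which the WT level did not select, Hmga2 fell by 1.05 on the log2(TPM + 1) scale (adjusted P = 0.0209, limma), and the mean TPM was 5.57-fold lower. That scale understates changes of low genes, and the log2 fold change was -2.83 with a pseudocount of 0.1 and -3.61 with voom, but -0.74 with median-of-ratios scaling and -0.72 with quantile normalization. With the filter, which the WT ovaries alone carried it past, the SE was 0.29 and the adjusted P 0.0213 (limma), as a description. Also as a description, the log2 fold change within code IGO_10280 was -1.18 (adjusted P = 0.00137, limma), close to the median of all genes in that fit, -1.19. With the filter, and without WT ovary 1, 2 or 3, the adjusted P was 0.116, 0.0816 and 0.0607 with log2 fold changes of -0.95, -1.06 and -1.14. With the libraries thinned to equal depth it was 0.0569 (log2 fold change -0.96), and with the trend with gene length removed 0.0536 (log2 fold change -0.78). The median level of chromosome 10 genes, relative to all genes, was lower by 0.45 to 0.51 on the log2 scale in MP tumors 5, 6 and 8, in which Hmga2 was at 1.17, 0 and 0 TPM. The part of chromosome 10 in the levels of Hmga2 and Lin28b was not tested.

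Of the 11 other HMG-family genes listed, Hmgb2, a DNA-bending protein of proliferating cells, rose from 48.1 ± 15.3 TPM (SD, n = 3) in WT to 243 ± 136 (SD, n = 10), a log2 fold change of 2.16 (adjusted P = 0.00605), and the other 10 did not pass. With voom 3 of the 11 were higher and 0 lower, within code IGO_10280 1 was higher and 4 lower, and without WT ovary 3 none was past the threshold by limma (0 each way). The median log2 fold change of the list was 0.24, against -0.58 over all genes.

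Lin28b (ENSMUSG00000063804, chromosome 10 from 45376620 to 45486395), which encodes the LIN28 protein that sequesters let-7 precursors in the nucleus, was the lowest of the 8 genes in the ovary and the second highest by median in the tumors. It was at 0.0743, 0.0359 and 0.0340 TPM in the WT ovaries, from 10, 3 and 6 reads. In the tumors it was at 0 in MP tumor 4, at a median of 0.654 TPM and at its highest, 7.52 TPM, in MP tumor 10, with 3.99 in MP tumor 1 and 1.74 in MP tumor 3. Accordingly, 9 of 10 tumors lay above every WT ovary, although MP tumors 5 and 9, at 0.0872 and 0.0830 TPM, rested on 1 and 2 reads. In MP tumor 4, 3 reads would have made 0.190 TPM, so a level like that of WT was not detectable there. The spread between tumors was large, with a mean of 1.59 ± 2.40 TPM (SD, n = 10), and the log2 fold change of 0.92 (SE 0.55) missed the threshold (adjusted P = 0.255, limma). Within code IGO_10280, where the tumors were at 3.99, 0.695 and 1.74 TPM, it was 1.44 (adjusted P = 0.0103), and with voom on the reads worked back it was 3.88 (adjusted P = 0.0363). Both values are a description, since Lin28b entered these fits only through tumors in which it is high. It missed the threshold with the code as a covariate (log2 fold change 1.44, adjusted P = 0.0601) and without a filter (adjusted P = 0.342). Without MP tumor 10 the log2 fold change was 0.68 (adjusted P = 0.241).

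The RefSeq start window of Lin28b is printed because it holds an E-box, in capitals, whose first base lies 49 bases before the start site (GRCm38.p6, minus strand).

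Lin28b, chr10:45470152-45470451: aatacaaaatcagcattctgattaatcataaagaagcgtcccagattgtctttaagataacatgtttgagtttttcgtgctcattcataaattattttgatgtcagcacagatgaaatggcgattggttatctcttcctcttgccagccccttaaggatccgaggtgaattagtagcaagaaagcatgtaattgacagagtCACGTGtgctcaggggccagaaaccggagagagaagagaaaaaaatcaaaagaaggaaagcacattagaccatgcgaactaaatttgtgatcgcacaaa

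Igf2bp3 held 2 E-boxes, and Igf2bp2, Lin28a, Hmga1 and Hmga2 held 0. The set of start windows used here held no entry for Igf2bp1 or Sall4. Over the genes with such a window, leaving out a chromosome that holds none of these genes, 8.09% held an E-box, and 11.3% of those tested did. The table places the outer end of Lin28b upstream of this window, so it marks 1 of several possible starts.

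Lin28a (ENSMUSG00000050966, chromosome 4 from 134003330 to 134018841), the cytoplasmic relative of Lin28b known from embryonic stem cells and oocytes, showed no such pattern. The WT ovaries were at 0.590, 0.978 and 0.539 TPM. The tumors had a median of 0.0143 TPM, with 0 reads in MP tumors 4 to 8 and the highest levels, 0.836 and 0.644 TPM, in MP tumors 1 and 10. These highest tumors lay within the WT range and the others below it, although in MP tumor 5 the level of 3 reads, 0.593 TPM, was not below WT. Lin28a was under the filter. In the fit without it, where 32961 genes were tested and 376 (1.14%) were higher and 3631 (11%) lower, its log2 fold change was -0.54 (adjusted P = 0.125, limma). The 14 genes of let-7 processing that were listed, such as Drosha and Dicer1, which cut the precursors, and Tut4, which uridylates them, held 13 tested genes, of which 0 were higher and 0 lower by limma (0 and 3 at an unadjusted P under 0.05 and also with voom, but 1 and 0 with median-of-ratios scaling and 2 and 1 with quantile normalization). Within code IGO_10280, 0 were higher and 10 of the 13 lower, where 57.3% of all genes were lower, and 1 was lower without MP tumor 5 or 10. Their median log2 fold change was -0.72.

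Among the let-7 targets listed beside the 8 genes, 25 were tested, of which 0 were higher and 3 lower by limma (1 and 8 at an unadjusted P under 0.05, 2 and 8 with voom), and 2 were higher with either median-of-ratios scaling or quantile normalization. Within code IGO_10280, 1 was higher and 16 lower, and without MP tumor 9 or 10 the number lower was 5. The median log2 fold change was -0.73. Thbs1, a matrix protein that inhibits vessel growth, fell by 4.54 on the log2 scale, Tgfbr1, a TGF-beta receptor, by 2.73 and Mycn, the MYC relative, by 3.24 (adjusted P = 0.00339, 0.00123 and 0.0474, limma). The share lower, 12%, was close to the 14.3% of all genes.

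Igf2bp2 (ENSMUSG00000033581, chromosome 16 from 22059009 to 22163299), the IGF2BP that adult tissues keep, was the second highest of the 8 genes in the ovary. It was at 6.07, 7.08 and 4.34 TPM in the WT ovaries. In the tumors it ranged from 0.0252 TPM (MP tumor 2) through a median of 0.404 to 4.60 (MP tumor 10). Only MP tumor 10 reached the WT range, and the other 9 lay below it. Igf2bp2 fell by 1.93 on the log2 scale (SE 0.48, adjusted P = 0.0133, limma), and its mean TPM was 5.38-fold lower. The log2 fold change was -3.16 with a pseudocount of 0.1 and -3.17 with voom, but -1.52 with median-of-ratios scaling, -1.30 with quantile normalization and -1.65 with the trend with gene length removed. Within code IGO_10280, where the median of all genes was -1.19, it fell by 2.53 (adjusted P = 7.79e-05, limma), and without MP tumor 10 by 2.11 (adjusted P = 0.00178, limma). The call was lost without WT ovary 1 or 2 (adjusted P = 0.0694 and 0.0788).

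Igf2bp1 and Igf2bp3, the members of the family that are largely confined to the embryo, were low in both conditions and under the filter. Igf2bp1 (ENSMUSG00000013415, chromosome 11 from 95957163 to 96005940) was at 0.0835, 0.112 and 0.0477 TPM in WT. Over the tumors it was at 0 in MP tumors 2, 3, 4 and 7, at a median of 0.0521 TPM and at 1.06 TPM, from 16 reads, in MP tumor 10. With MP tumors 9 (0.428 TPM) and 1 (0.374 TPM), 3 tumors lay above every WT ovary, while in the 4 tumors at 0 the level of 3 reads was 0.0353 to 0.177 TPM and lay below every WT ovary only in MP tumor 3. In the fit without a filter the log2 fold change was 0.12 (adjusted P = 0.765, limma).

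Igf2bp3 (ENSMUSG00000029814, chromosome 6 from 49085223 to 49214957) was at 0.536, 0.452 and 0.296 TPM in WT. The tumors had a lowest level of 0 (MP tumor 6), a median of 0.121 TPM and their highest levels in MP tumors 10 (0.709 TPM) and 9 (0.600 TPM). These 2 lay above and the other 8 below the WT ovaries, and the log2 fold change without a filter was -0.25 (adjusted P = 0.418, limma). Of its 8159 exonic bases, 1529 overlap Malsu1 on the opposite strand, which reached 58.8 TPM, so that some reads of either gene may have been lost or shared in the counting.

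The IGF2BP genes had the same leading tumors. MP tumor 10 was the highest and MP tumor 9 the next for all 3, from 16 and 11 reads of Igf2bp1 and 9 and 13 of Igf2bp3. These tumors also led other lists. MP tumors 10 and 9 were the highest for 10 and 2 of the 14 let-7 processing genes. They were the highest for 6 and 4 of the 10 m6A genes below, but for 3 and 3 of the 14 listed IGF2BP targets. Of 13 IGF2BP target transcripts tested, 0 were higher and 3 lower by limma (0 and 4 at an unadjusted P under 0.05 and with voom), and the median log2 fold change was -0.67. The lower ones were Gli1, an effector of Hedgehog signaling, Ccng1, a p53 target that encodes cyclin G1, and Mapk4, an atypical MAP kinase that is named outside the rule because the count is small. Gli1 fell by 2.34 on the log2 scale, Ccng1 by 1.69 and Mapk4 by 0.86 (adjusted P = 0.0117, 0.00530 and 0.0368, limma). Mapk4 passed the filter only through the WT ovaries, so its call is a description. Within code IGO_10280, 0 were higher and 8 lower, and without WT ovary 1, 2 or 3 the number lower was 1. None of the 8 partners in ribonucleoprotein particles and none of the 10 genes of the m6A machinery, which writes, reads and erases the methyl mark that IGF2BP proteins recognize, was past the threshold by limma, at an unadjusted P under 0.05 or with voom (0 each), although with median-of-ratios scaling 1 m6A gene was higher. Within code IGO_10280, 4 of the 8 partners and 6 of the 10 m6A genes were lower, against 57.3% of all genes. Their median log2 fold changes were -0.10 and -0.43. Igf2 and H19, an imprinted pair that IGF2BP proteins bind, are given although they missed it and were chosen after their values were seen. Igf2 was at 0.0986 to 0.266 TPM in WT and at 41.6 and 37.7 TPM in MP tumors 4 and 5, and H19 was at 15.3 to 30.2 TPM in WT and at 3856 and 1703 TPM in the same tumors.

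Sall4 (ENSMUSG00000027547, chromosome 2 from 168748332 to 168767943) had reads in every WT ovary and in 1 tumor. The WT ovaries were at 1.26, 1.47 and 1.09 TPM, from 297 reads in all. In 9 of 10 tumors no read was assigned to it, and the highest tumor, MP tumor 1, was at 0.327 TPM from 13 reads. The groups did not overlap, and in the 9 tumors at 0 the level of 3 reads was 0.0618 to 0.428 TPM, below each WT ovary. Sall4 fell by 1.14 on the log2(TPM + 1) scale (SE 0.18, adjusted P = 0.000383, limma) and by 1.05 within code IGO_10280 (adjusted P = 0.00226, limma), where the median of all genes was -1.19. Since it entered these fits only through the WT ovaries, where it is high, they are a description. In the fit without a filter, which took every gene with a read in any library, the log2 fold change was the same (adjusted P = 3.52e-05, limma). It was -3.56 with a pseudocount of 0.1 and -4.69 with voom, but -0.83 with median-of-ratios scaling, -0.81 with quantile normalization and -0.94 with the trend with gene length removed. Thinned to equal depth, or with a minimum of 5 TPM, it could not be tested.

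Oocyte markers are given beside Sall4 and Lin28a, which germ cells express. Of 15 such markers, 12 fell and 0 rose by limma (13 and 0 at an unadjusted P under 0.05, 12 and 0 with voom, 14 and 0 within code IGO_10280). Zp1, Zp2, Zp3, Bmp15, Oosp1, Nlrp5, Padi6, Figla and Nobox passed the filter only through the WT ovaries, where they are high, so these counts are a description. Zp2 and Zp3, which encode proteins of the egg coat, fell by 6.30 and 6.09 on the log2 scale, and Padi6, an enzyme of the oocyte cytoplasm, by 6.55 (adjusted P = 3.92e-09, 6.28e-08 and 1.67e-07, limma). The summed level of the markers was 480 to 692 TPM in WT and 12.5 to 524 in the tumors, where the top value was MP tumor 10 with 512 TPM of Kit, a receptor that other cells also express. Without Kit the sums were 465 to 673 TPM in WT and 3.32 to 45.0 in the tumors, and Figla, an oocyte transcription factor, was at 0 in every tumor. Their part in the levels of Sall4 and Lin28a was not tested.

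Among the 18 genes listed with Sall4 as pluripotency or SALL genes, 9 were tested, of which 5 fell and 0 rose by limma (5 and 1 at an unadjusted P under 0.05 and with voom, 5 and 0 within code IGO_10280), with a median log2 fold change of -1.56. The share lower was 55.6%, against 14.3% of all genes. Dppa3, Dppa5a and Tdgf1 passed the filter only through the WT ovaries, where they are high, so this count is a description. The number that fell was 2 without WT ovary 1 or 2 and 3 without WT ovary 3. Dppa3, an oocyte and early embryo factor, fell by 4.61 on the log2 scale, Dppa5a, an RNA-binding protein of the same stages, by 3.32 (adjusted P = 2.64e-06 and 0.000362, limma). Klf4, a transcription factor also used by epithelia, fell by 2.30 (adjusted P = 0.0212, limma). Of the 13 subunits of NuRD, the histone deacetylase complex that SALL4 recruits, 0 were higher and 0 lower by limma (0 and 2 at an unadjusted P under 0.05, 0 and 1 with voom, 0 and 9 within code IGO_10280), with a median log2 fold change of -0.55. Without MP tumor 5 or 9, 1 was lower. MP tumor 1, the tumor with Sall4 reads and the highest Lin28a, was also the highest tumor for 6 of the 16 listed genes that had a read in any tumor. The others peaked elsewhere, such as Utf1, a chromatin factor of pluripotent cells, which was at 0.567 TPM in MP tumor 1 and at 130 TPM in MP tumor 10. Among the 6 was Pou5f1, the pluripotency factor OCT4, at 27.3 TPM against 1.53 to 2.70 in WT and at most 0.551 in the other tumors. Pou5f1 and Tdgf1, a Nodal co-receptor of embryonic cells, which was at 2.71 TPM in this tumor against 1.74 to 4.47 in WT and at most 0.630 in the other tumors, were, like Utf1, named after their values were seen.

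**Figure D3:**
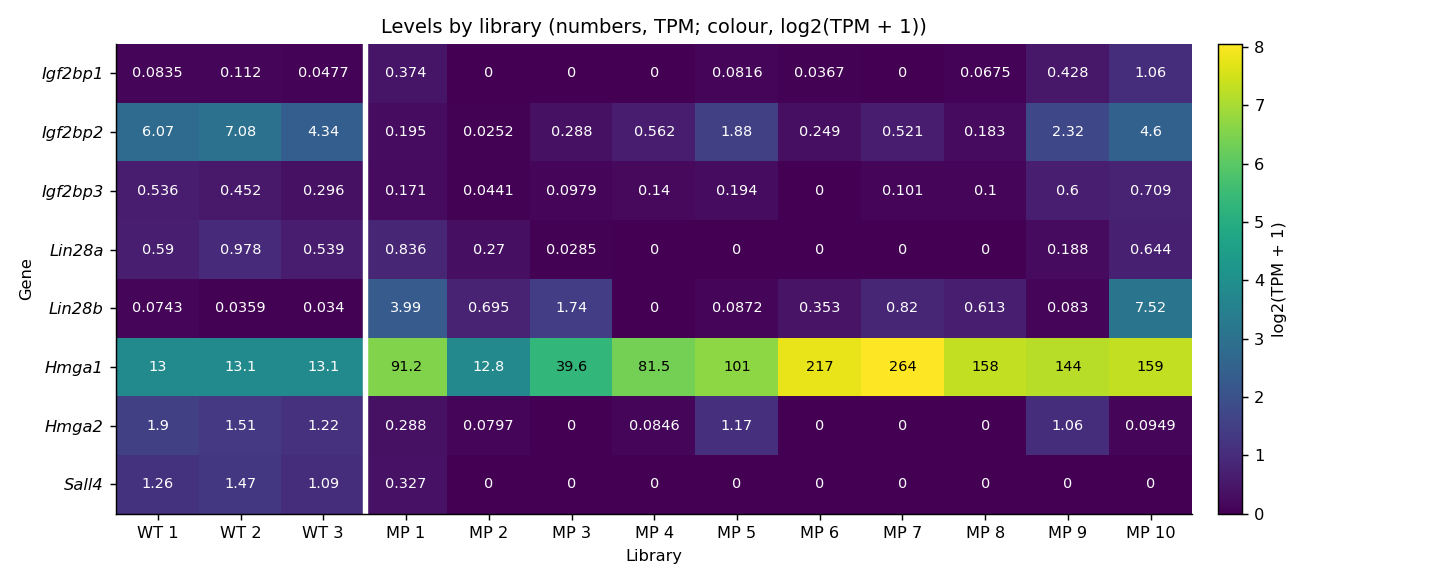
TPM of each gene (rows) in each library (columns), with the value printed and log2(TPM + 1) as color. MP tumor 10 is the highest tumor for 4 of the 8 genes, and Hmga1 is the brightest row.

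Tumors differed from each other in which of the genes they held. MP tumor 10 was the highest for 4 genes (Igf2bp1, Igf2bp2, Igf2bp3 and Lin28b) and among the 3 highest for 6. It was also the highest for 10 of the 14 let-7 processing genes, 6 of the 10 m6A genes and 10 of the 28 let-7 targets. Lower shares were seen in other lists, such as 3 of 11 HMG-family genes and 2 of 16 pluripotency or SALL genes. The count is therefore not read as particular to the 8 genes. MP tumor 1 was the highest for Lin28a and Sall4 and among the 3 highest for 5, whereas MP tumor 9 was among the 3 highest for 4 and MP tumors 4 and 8 for none. At a level of at least 1 TPM, each WT ovary held 4 of the genes, MP tumor 10 also held 4, MP tumors 5 and 9 held 3, MP tumors 1 and 3 held 2 and the other 5 tumors held only Hmga1. MP tumor 10 is also the library in which Trp53 was not low and Kit stood at 512 TPM, and without it and MP tumor 2, a setting chosen after the data were seen, Hmga1 and Igf2bp2 kept their calls (adjusted P = 0.000892 and 0.00324, limma).

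In the ovary the genes were ordered Hmga1 (mean 13.1 TPM), Igf2bp2 (5.83), Hmga2 (1.54), Sall4 (1.28), Lin28a (0.702), Igf2bp3 (0.428), Igf2bp1 (0.0811) and Lin28b (0.0481). Of neighbors in this order, Hmga2 and Sall4 overlapped between libraries, as did Igf2bp1 and Lin28b. By median over the tumors the order was Hmga1 (122.7 TPM), Lin28b (0.654), Igf2bp2 (0.404), Igf2bp3 (0.121), Hmga2 (0.0822), Igf2bp1 (0.0521), Lin28a (0.0143) and Sall4 (0), and all neighbors after Hmga1 overlapped. On the log2(TPM + 1) scale the SD over tumors was 1.26 for Hmga1, which was larger than for 77.8% of the genes tested, 1.02 for Lin28b (62.8%) and 0.81 for Igf2bp2 (45.2%).

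**Figure D4:**
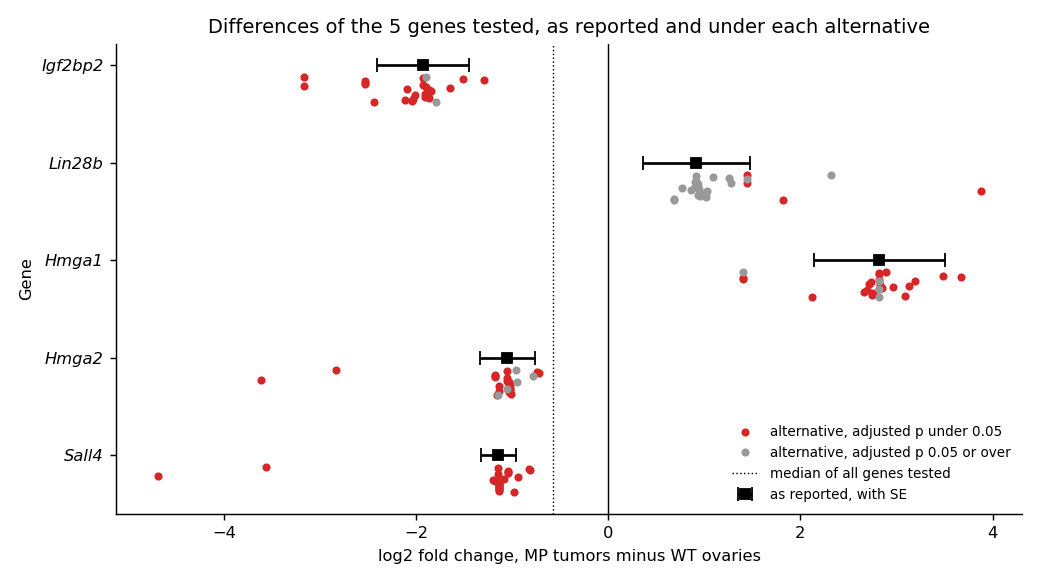
Log2 fold change, MP tumors minus WT ovaries (x axis), of the 5 genes tested, with the reported value and its SE (black squares) and the value under each alternative (points, red where the adjusted P was under 0.05). The median of all genes is at -0.58 (dotted line), and no alternative that was run moved a gene across 0.

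Genes whose levels over the 10 MP tumors were most like those of a member were taken as the 3 highest Pearson correlations of log2(TPM + 1) out of 10944 genes, as a description, since all points share library, depth and scaling. For Hmga1 they were Arfip2 (r = 0.989), Fance (0.985), a gene of the Fanconi anemia pathway of DNA repair, and Eif4ebp1 (0.982), an inhibitor of cap-dependent translation. For Lin28b they were G430095P16Rik (r = 0.958), Mterf1a (0.956), a mitochondrial transcription terminator, and Med28 (0.934), a Mediator subunit. For Igf2bp2 they were Klhl24 (r = 0.970), Eif2ak2 (0.963), the double-stranded RNA sensor PKR, and Jmjd1c (0.948), a histone demethylase family member.

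Other oncofetal genes were few among those tested. Of 8 listed, 3 passed the filter, of which 0 were higher and 1 was lower by limma (1 and 1 at an unadjusted P under 0.05, 0 and 1 with voom). The lower one was Tpbg, an oncofetal membrane protein of trophoblast, which fell by 2.60 on the log2 scale (adjusted P = 0.0140, limma) and lost its call without WT ovary 1, 2 or 3. The other 2 were Gpc3, a cell-surface proteoglycan, and Dlk1, an imprinted membrane protein, which missed the threshold (log2 fold changes 1.03 and 3.28, adjusted P = 0.406 and 0.0935) and were named after their values were seen. Both were highest in MP tumor 9, at 502 and 289 TPM, against 50.5 to 72.5 and 0.537 to 3.85 TPM in WT.

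**Figure D5:**
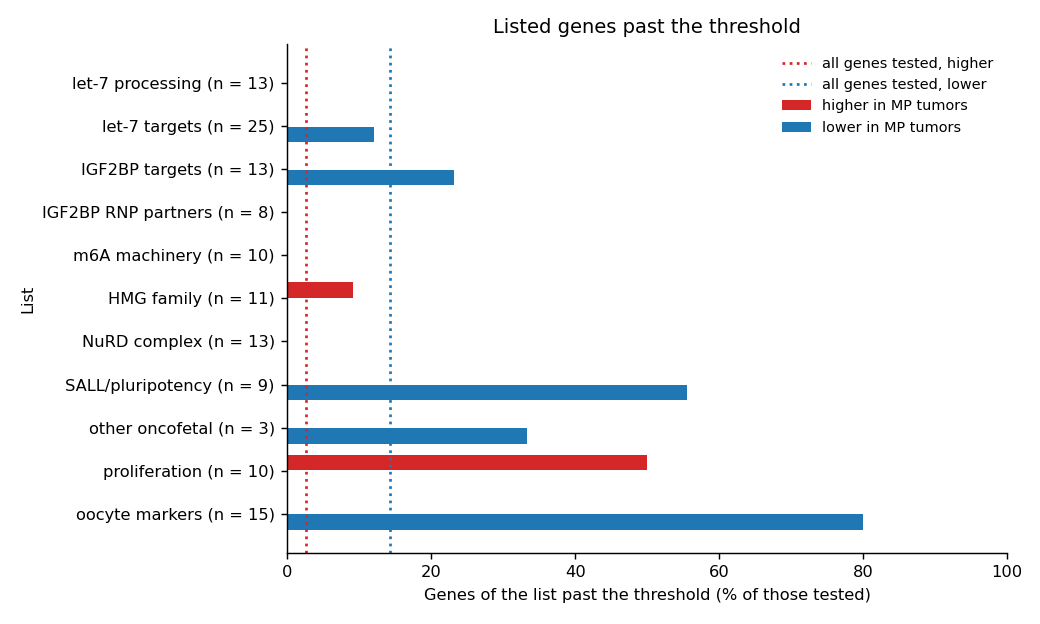
Percent of the tested genes of each list (x axis) that were higher (red) or lower (blue) in MP tumors, with the percent of all genes tested as dotted lines (2.51% higher, 14.3% lower). Of the tested genes, 50% of the proliferation list were higher and 80% of the oocyte list lower. Many of the oocyte markers passed the filter only through the WT ovaries.

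Other ovarian cell types also moved, beside which the falls of Igf2bp2 and Hmga2 stand. In the tumors 7 of 8 granulosa, 5 of 6 luteal and theca, 4 of 5 smooth muscle, 3 of 6 stromal, 2 of 4 endothelial and 3 of 6 tested epithelial markers fell and 0 of these rose by limma, at an unadjusted P under 0.05 or with voom. Among them, the granulosa markers Fshr and Cyp19a1 and the luteal marker Lhcgr passed the filter only through the WT ovaries. Without WT ovary 1, 2 or 3 the stromal count was 0 and the endothelial count 1, and without 1 tumor they ranged from 1 to 5 and from 2 to 4. The smooth muscle count was 2 without WT ovary 1 or 3. Within code IGO_10280, 6 stromal, 4 endothelial, 4 smooth muscle and 4 epithelial markers were lower. Of the mesothelial markers 1 of 4 fell (0 without WT ovary 1, 2 or 3, and 3 without MP tumor 9), and of 5 immune markers 0 changed by limma (0 higher and 3 lower at an unadjusted P under 0.05, 0 and 2 with voom, 0 and 2 without MP tumor 5, 0 and 1 without MP tumor 9, 0 and 4 within code IGO_10280). The summed stromal markers were 973 to 1676 TPM in WT and 33.1 to 3390 in the tumors, and the summed smooth muscle markers 1352 to 1576 and 52.3 to 1267. Of 4 skeletal muscle markers tested 1 rose, Ckm, the muscle creatine kinase (log2 fold change 4.85, adjusted P = 0.0235, limma, and over 0.05 without WT ovary 1, 2 or 3), and the sum of all 5 listed was 7.72 to 9.52 TPM in WT and 6.43 to 1756 in the tumors. The part of these cell types in the levels of Igf2bp2 and Hmga2 was not tested.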

How the data were processed

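Whole-tissue RNA of 3 WT ovaries and 10 MP tumors was sequenced by the authors as 76-base single-end reads of polyA RNA. The authors deposited 1 table with the TPM of each gene in each library, scaled so that each library sums to 1000000. The labels' lists name FastQC 0.11.5, Trimmomatic 0.36, STAR 2.5.3a and featureCounts 1.6.3 with mm10 and GRCm38, while their protocol text names hg19, HTSeq and RPKM. The table holds mouse genes, 96.0% of them with the start and end of GENCODE M21, so it was read as GRCm38. Columns were matched to samples by the labels' description, and 0 columns were left unused.

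Read numbers were worked back from TPM times length, and 100% of values came out whole within 0.01 read. Low values are limited by depth. In a 1-kb gene, 1 read made at most 0.790 TPM in the tumors and at most 0.109 in WT. Intervals for counting error were not computed. Within each condition, no 2 libraries matched within sampling noise (chi-square per degree of freedom at least 30.2), so all were counted.

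Values were tested with limma 3.58.1 (trended and robust, R 4.3.3) on log2(TPM + 1) for genes with at least 1 TPM in at least 3 libraries, 10 MP tumors against 3 WT ovaries with no covariate, 2-sided, with Benjamini-Hochberg adjustment over all genes tested and a threshold of 0.05. The 8 genes and all lists were chosen with earlier results of these data known. Lists are described by counts beside those of all genes. Named genes are the 8, Trp53 and Myc, from each list up to 3 genes with the largest change in each direction past the threshold with a mean of at least 1 TPM, and the 3 genes most correlated over tumors (mean of at least 5 TPM there) with each of the 8 that had at least 1 TPM in at least 3 tumors. Alternatives varied the pseudocount, filter, scaling, code, block on replicate number, limma options, voom on the reads worked back, thinning, length trend and single libraries. A further 2, without MP tumors 2 and 10 and within code IGO_10280 without MP tumor 2, were chosen after the data were seen. Motifs were searched in RefSeq start windows (GRCm38.p6) and GENCODE M21 transcripts.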

Additional observations from a re-analysis of the deposited data

Results flagged for a closer look

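In 8 groups tested (the 10 MP tumors for each gene), 2 had a library farther from its nearest neighbor than Dixon's limit, where chance gives about 1 in 20. Igf2bp1 in MP tumor 10, at 1.06 TPM from 16 reads, lay apart from the next tumor, MP tumor 9, at 0.428 TPM. Sall4 in MP tumor 1, at 0.327 TPM from 13 reads, lay apart from the other 9 tumors, which had 0 reads. With 9 values tied at 0, any value above 0 would have met the limit, and the chance rate does not apply to it.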

How the results depend on the processing

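No alternative reversed the direction of the 5 genes tested. Igf2bp1, Igf2bp3 and Lin28a were fitted only without the filter and have no alternatives. Of the 8, 1 was higher and 3 lower. The number higher became 2 with the replicate block, with voom and within code IGO_10280 without MP tumor 2, where Lin28b was added, and it ranged from 0 (without WT ovary 1, 2 or 3) to 1 over the fits that left out 1 library. The number lower became 0 with a minimum of 5 TPM, where Hmga1 alone could be tested, 1 when thinned, and 1 to 3 over the fits that left out 1 library, of which those without WT ovary 1 or 2 gave 1. Within code IGO_10280 the 1 gene higher was Lin28b and not Hmga1. Over all genes, the number higher (433) became 1274 with median-of-ratios scaling, 1665 with quantile normalization, 1112 within code IGO_10280, 894 with the code as a covariate, 1087 with the replicate block, 1876 with voom, 675 without MP tumors 2 and 10 and 2171 within code IGO_10280 without MP tumor 2, and ranged from 94 to 635 over the fits that left out 1 library. The number lower (2463) became 9902 within code IGO_10280, 8534 with the code as a covariate, 9803 with the replicate block, 4045 with voom and 9766 within code IGO_10280 without MP tumor 2, and ranged from 1158 to 3264. The cause was not tested. Replicate numbers 1 to 3 are shared by WT ovaries and MP tumors that the labels do not otherwise pair, and same-numbered libraries did not deviate together (correlations -0.05, 0.02 and -0.04). With the replicate block, Hmga1 had a log2 fold change of 1.41 (adjusted P = 0.0437, limma) and Lin28b 1.44 (adjusted P = 0.00112). The calls of Hmga1 and Hmga2 were lost without WT ovary 1, 2 or 3, and that of Igf2bp2 without WT ovary 1 or 2. Igf2bp1, Igf2bp3 and Lin28a were too low in TPM to be tested with the filter.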
